A study of Mus musculus with 6 samples.

Results

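The genes of sterol synthesis and of its control by the SREBP transcription factors were followed in submandibular glands of NOD mice with and without Myd88. Of 28 genes listed for the pathway, 25 had a probe set with their symbol, out of 19505 named genes on the array, and Acat2, Tm7sf2 and Srebf1 were not analysed here. Where a gene has several probe sets, the one to stand for it is chosen by its highest mean over the 6 glands, but each of the 25 genes had 1 probe set. The genes themselves were named with earlier results of these data known, so their differences between the genotypes are a description and no independent support for a change of the pathway.

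The glands came from 6 female mice 10 weeks old, 3 of the strain labelled NOD.B6-Myd88+/+ and 3 of the strain labelled NOD.B6-Myd88−/−, with no treatment named and 1 array (Clariom S) per mouse. NOD mice develop autoimmune disease of the salivary glands, and Myd88 is the adaptor of most Toll-like receptors and of the interleukin-1 receptor family. The Myd88−/− mice lack Myd88 in all cells as far as the labels say, which name no Cre or cell type. Each gland is a mixture of cells, so that fewer cells of a type cannot be told apart from less RNA per cell. The comparison asks which transcripts of the gland differ with the Myd88 genotype.

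Cells make cholesterol from acetyl-CoA through mevalonate, isoprenoids and squalene, and their enzymes are switched together. When sterols are low in the endoplasmic reticulum, Scap carries the SREBP precursors to the Golgi, where proteases free the part that enters the nucleus. When sterols are plentiful, the Insig proteins hold Scap back. Srebf2 mainly drives the sterol genes and Srebf1 the fatty acid genes, and Insig1 is itself a target of SREBP, so it is widely read as a marker of the pathway's activity.

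Each value is a log2 level made by robust multi-array averaging (RMA), a method that corrects background and puts the arrays on one scale. A level of one gene cannot be set against that of another on this scale. Control probe sets for background had a median of 5.55, and of the 25 genes only Pmvk had both group means below it. The probe set of Myd88 read 7.81, 7.86 and 7.53 in the Myd88+/+ glands (replicates 1, 2 and 3) and 7.33, 6.80 and 7.47 in the Myd88−/− glands (limma adjusted p = 0.462). All Myd88−/− values were lower than the Myd88+/+ values, by a log2 difference of −0.53 in the mean. The sources used here do not say whether these probes lie in the deleted stretch, so the values cannot check the deletion. Gland markers were bright in every array: Lpo, the lactoperoxidase of acini, lay between 19.05 and 19.46, and Egf, of the granular ducts, between 14.46 and 15.86. Arrays correlated at r = 0.982 to 0.991 over the tested probe sets. The signal span, taken as the distance between the 10th and the 90th percentile, was 7.30, 7.10 and 7.20 log2 units in Myd88+/+ glands and 6.95, 7.13 and 6.83 in Myd88−/− glands (p = 0.2 in a two-sided exact permutation test, which here cannot go below 0.1). Replicate 3 of Myd88−/− had the narrowest span.

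The stretches before the transcription start of Insig1, Cyp51, Hmgcs1, Idi1 and Msmo1 are shown because these were the 5 genes with the largest differences among those with a start and a motif in the sequence table. SREBPs bind sterol regulatory elements and E-boxes, and commonly act with the factors NF-Y and Sp1 beside them. The 250 bases before each start were searched on both strands for the sterol regulatory core TCACNCCAC, its shorter part CACCCCAC, which overlaps it, the E-box CACGTG, the NF-Y box CCAAT and the GC box GGGCGG. Matches are in capitals, 5′ to 3′ on the strand of the gene, and a match on the other strand appears as its reverse complement. Sequences are from RefSeq, build GRCm38.p6: Insig1 at chr5:28071162-28071411 (plus strand), Cyp51 at chr5:4104698-4104947 (minus), Hmgcs1 at chr13:119690101-119690350 (plus), Idi1 at chr13:8885356-8885605 (plus) and Msmo1 at chr8:64733579-64733828 (minus).
Insig1: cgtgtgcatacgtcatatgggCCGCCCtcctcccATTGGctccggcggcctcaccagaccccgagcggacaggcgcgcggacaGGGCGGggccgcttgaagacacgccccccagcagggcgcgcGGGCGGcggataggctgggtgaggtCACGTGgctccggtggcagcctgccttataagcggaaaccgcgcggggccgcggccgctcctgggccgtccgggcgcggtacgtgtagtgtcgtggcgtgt
Cyp51: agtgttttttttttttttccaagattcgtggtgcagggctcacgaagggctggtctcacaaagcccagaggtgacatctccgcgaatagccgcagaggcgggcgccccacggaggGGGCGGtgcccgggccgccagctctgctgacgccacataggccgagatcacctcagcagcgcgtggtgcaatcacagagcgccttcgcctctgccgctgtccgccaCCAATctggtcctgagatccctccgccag
Hmgcs1: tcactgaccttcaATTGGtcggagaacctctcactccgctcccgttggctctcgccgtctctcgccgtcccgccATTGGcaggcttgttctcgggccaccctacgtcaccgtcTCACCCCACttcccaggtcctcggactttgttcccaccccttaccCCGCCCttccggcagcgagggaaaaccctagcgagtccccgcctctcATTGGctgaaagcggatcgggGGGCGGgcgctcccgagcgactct
Idi1: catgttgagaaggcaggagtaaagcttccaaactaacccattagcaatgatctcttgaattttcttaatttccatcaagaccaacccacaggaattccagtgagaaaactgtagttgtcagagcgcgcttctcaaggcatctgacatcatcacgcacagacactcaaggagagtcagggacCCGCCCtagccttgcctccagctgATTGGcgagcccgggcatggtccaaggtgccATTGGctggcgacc
Msmo1: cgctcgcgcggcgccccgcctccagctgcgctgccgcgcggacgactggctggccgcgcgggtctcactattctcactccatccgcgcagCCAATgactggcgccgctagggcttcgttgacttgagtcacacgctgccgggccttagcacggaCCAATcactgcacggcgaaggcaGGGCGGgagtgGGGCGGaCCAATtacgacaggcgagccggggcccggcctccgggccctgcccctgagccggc

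The Hmgcs1 stretch held the sterol regulatory core, from 137 to 129 bases before the start, between NF-Y boxes. The core stood before 1 of 31 starts of the pathway's genes and before 1.05% of all 32851 starts in the table. Insig1 held the E-box, from 101 to 96 bases before the start, as did the starts of Dhcr7, Hsd17b7, Sc5d and Scap, 5 of 31 (16.1%, against 6.02% of all). The NF-Y box stood before 21 of 31 starts (67.7%, against 33.8% of all) and the GC box before 22 of 31 (71.0%, against 32.7% of all). A start was in the table for 23 of the 28 genes. These are matches of letters in a short window, and no binding was measured here.

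Most genes of the pathway were somewhat higher in Myd88−/− glands, but no gene passed the test. The mean was higher in 20 of 25 genes, while 52.5% of all tested probe sets had a higher mean in Myd88−/− glands. The median log2 difference (Myd88−/− minus Myd88+/+ throughout) was 0.19 over the 25 genes, with a range from −0.39 (Scap) to 1.33 (Insig1), and 0.02 over all 22206 tested probe sets. The pathway's genes were bright, 24 of them lying in the brighter 50% of probe sets, where the median difference was −0.07. In limma's test adjusted over all probe sets 0 of 25 genes passed, as did 0% of all tested probe sets. The adjusted p of the 25 genes lay between 0.388 and 0.988.

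At an unadjusted limma p under 0.05, 3 of 25 genes were higher, Insig1, Hmgcs1 and Idi1, and 0 lower, where 4.5% of all tested probe sets were higher and 5.55% lower. This count moved with single glands. Leaving out replicate 3 of Myd88−/− made it 9 higher and 0 lower, and leaving out replicate 3 of Myd88+/+ made it 4 higher and 1 lower (Scap). Leaving out replicate 2 of Myd88+/+ left 1 higher, as did leaving out replicate 2 of Myd88−/−, where Ebp and Scap passed as lower and Hmgcs1 and Idi1 no longer passed. The share of all tested probe sets was not counted with a gland left out, so these counts have none beside them. Leaving out 1 gland turned the sign of the mean difference in Pmvk, Lss, Sc5d, Dhcr7, Insig2, Stard4, Fasn and Scd1. All 3 Myd88−/− glands lay above all 3 Myd88+/+ glands in 4 genes (Insig1, Srebf2, Hmgcs1 and Hsd17b7), against 7.84% of all tested probe sets. In 1 gene (Ebp) all 3 lay below, against 7.25%. The 5 genes with a lower mean were Mvk, Pmvk, Ebp, Scap and Stard4, and without Myd88−/− replicate 2 there were 9.

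**Figure D1:**
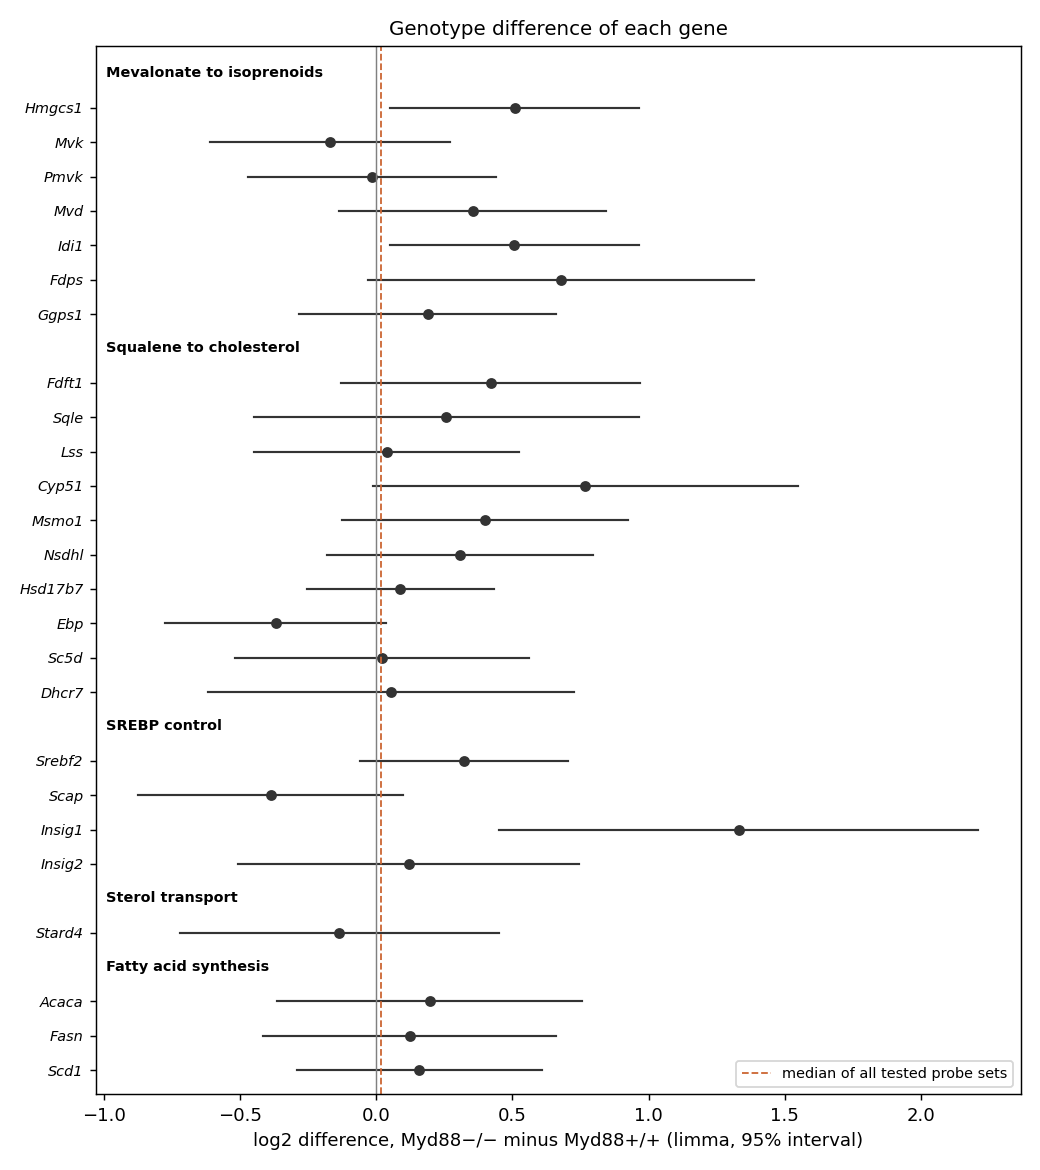
Log2 difference of each of the 25 genes, Myd88−/− minus Myd88+/+ (x axis), by role in the pathway; points are the estimates of limma and bars their 95% intervals, 3 glands per genotype. Insig1 stands furthest to the right at 1.33, the intervals of Insig1, Hmgcs1 and Idi1 lie above 0, and the dashed line is the median of all tested probe sets, 0.02.

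Insig1, which holds Scap in the endoplasmic reticulum and is switched on by SREBP, had the largest difference of the pathway. It read 11.82, 11.56 and 12.68 in Myd88+/+ and 14.21, 13.04 and 12.82 in Myd88−/− glands. The groups did not overlap, but Myd88+/+ replicate 3 and Myd88−/− replicate 3 lay only a little apart, and Myd88−/− replicate 1 stood highest. The log2 difference was 1.33 with a standard error (SE) of 0.39, a 2.52-fold higher level (limma adjusted p = 0.388). Leaving out 1 gland at a time gave 0.91 to 1.66, the lowest without Myd88−/− replicate 1, and the adjusted p ran from 0.244 to 0.675 over the alternatives. The groups overlapped in its paralog Insig2, which does the same work under other control. It read 8.03, 7.16 and 7.44 in Myd88+/+ and 7.72, 8.05 and 7.21 in Myd88−/− glands, a difference of 0.12 (95% interval −0.51 to 0.75).

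Srebf2, the transcription factor of the sterol genes, read 11.28, 11.47 and 11.37 in Myd88+/+ and 11.68, 11.88 and 11.53 in Myd88−/− glands. All 3 Myd88−/− glands were above the Myd88+/+ glands, by a log2 difference of 0.32 (SE 0.17, limma adjusted p = 0.562), a 1.25-fold higher level. Scap, the escort of SREBP, had a lower mean. It read 9.88, 9.88 and 9.38 in Myd88+/+ and 9.10, 9.64 and 9.23 in Myd88−/− glands, and the groups overlapped through Myd88+/+ replicate 3. The difference of Scap was −0.39 (SE 0.22, limma adjusted p = 0.579). Scap lies on chromosome 9 within 10 Mb of Myd88, so that the genotype and any strain difference in the segment around the targeted allele cannot be told apart.

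**Figure D2:**
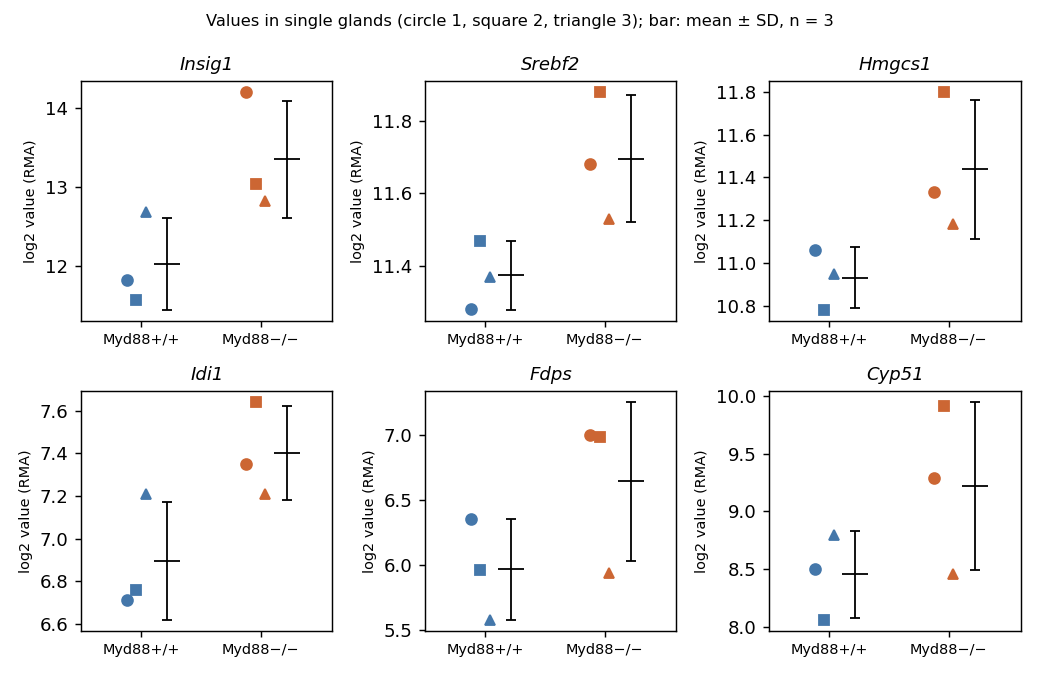
RMA log2 values of 6 genes in single glands (y axes differ and do not start at 0) by genotype; circles, squares and triangles are replicates 1, 2 and 3, bars the mean ± SD of 3 glands. In Insig1, Srebf2 and Hmgcs1 the groups do not overlap, in Idi1 they meet at 7.21, and in Fdps and Cyp51 Myd88−/− replicate 3 (triangle) lies among the Myd88+/+ glands.

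In the mevalonate arm, 5 of 7 measured genes had a higher mean in Myd88−/− glands, and the median log2 difference was 0.35. Hmgcs1, which makes the substrate of the step to mevalonate, read 11.06, 10.78 and 10.95 in Myd88+/+ and 11.33, 11.80 and 11.18 in Myd88−/− glands. Idi1, the isomerase of the isoprenoid building blocks, read 6.71, 6.76 and 7.21 in Myd88+/+ and 7.35, 7.64 and 7.21 in Myd88−/− glands. Both genes had a log2 difference of 0.51 (SE 0.20), a 1.42-fold higher level, with limma adjusted p = 0.461 for Hmgcs1 and 0.46 for Idi1. The groups were apart in Hmgcs1, by less than the spread within Myd88−/−, and met in Idi1.

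Fdps, which joins the building blocks to farnesyl diphosphate, read 6.36, 5.96 and 5.58 in Myd88+/+ and 7.00, 6.99 and 5.94 in Myd88−/− glands. Replicates 1 and 2 of Myd88−/− were above all Myd88+/+ glands and replicate 3 was not. Myd88+/+ replicate 3 lay near the background median, so the size of the difference is uncertain. The mean difference of Fdps was 0.68 (SE 0.31, limma adjusted p = 0.514). Leaving out 1 gland at a time gave 0.48 (no Myd88+/+ replicate 3) to 1.03 (no Myd88−/− replicate 3), with 0.50 when Myd88−/− replicate 1 or 2 was left out. Mvd, which makes isopentenyl diphosphate, read 6.32, 6.78 and 6.42 in Myd88+/+ and 6.66, 7.24 and 6.67 in Myd88−/− glands, a difference of 0.35 in which only replicate 2 exceeded every Myd88+/+ gland.

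In the remaining genes of this arm the groups overlapped. Mvk, mevalonate kinase, read 7.12, 6.62 and 6.62 in Myd88+/+ and 6.78, 6.50 and 6.57 in Myd88−/− glands (difference −0.17). Pmvk, the kinase after it, read 5.36, 5.62 and 5.53 in Myd88+/+ and 5.44, 5.83 and 5.19 in Myd88−/− glands, at the level of the background controls, where the size of its difference (−0.02) is uncertain. Ggps1, which leads to the geranylgeranyl anchors of proteins and off the sterol path, read 9.36, 9.59 and 9.70 in Myd88+/+ and 9.77, 9.39 and 10.06 in Myd88−/− glands (difference 0.19). Its order within Myd88−/− was the reverse of that of most genes here, with replicate 3 highest.

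From squalene to cholesterol, 9 of 10 measured genes had a higher mean in Myd88−/− glands, with a median log2 difference of 0.17. Cyp51, the lanosterol demethylase, had the largest. It read 8.50, 8.06 and 8.80 in Myd88+/+ and 9.29, 9.91 and 8.46 in Myd88−/− glands, so that replicates 1 and 2 of Myd88−/− stood above all Myd88+/+ glands and replicate 3 below 2 of them. The difference of Cyp51 was 0.77 (SE 0.35, limma adjusted p = 0.503), 1.15 when Myd88−/− replicate 3 was left out and 0.42 when replicate 2 was.

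The same split of the Myd88−/− glands was seen in 4 further enzymes of this arm. Fdft1, squalene synthase and the first step given over to sterols, read 8.96, 9.22 and 9.65 in Myd88+/+ and 9.82, 9.97 and 9.29 in Myd88−/− glands (difference 0.42). Sqle, squalene epoxidase, read 7.31, 6.94 and 7.35 in Myd88+/+ and 7.81, 7.90 and 6.67 in Myd88−/− glands (difference 0.26). In Sqle replicate 3 was the lowest of all 6 glands while replicates 1 and 2 were the highest. Msmo1, which starts the removal of methyl groups after Cyp51, read 6.25, 6.05 and 6.34 in Myd88+/+ and 6.70, 7.01 and 6.14 in Myd88−/− glands (difference 0.40). Nsdhl, the dehydrogenase of the same reactions, read 11.22, 11.05 and 11.10 in Myd88+/+ and 11.77, 11.52 and 10.99 in Myd88−/− glands (difference 0.31). These differences rested on single glands in both directions. With 1 gland left out at a time, Fdft1 ran from 0.26 (no Myd88+/+ replicate 1) to 0.62 and Sqle from 0.04 (no Myd88−/− replicate 2) to 0.65. Msmo1 ran from 0.20 (no Myd88−/− replicate 2) to 0.64 and Nsdhl from 0.13 (no Myd88−/− replicate 1) to 0.52. The highest value of each was that without Myd88−/− replicate 3, where the limma adjusted p was 0.682 or 0.684.

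Other enzymes of this arm lacked that split. Hsd17b7, the reductase that works with Nsdhl, read 6.57, 6.53 and 6.62 in Myd88+/+ and 6.65, 6.65 and 6.69 in Myd88−/− glands, groups that did not overlap but lay only 0.09 apart in the mean. Lss, which closes the sterol rings, read 10.62, 10.80 and 10.14 in Myd88+/+ and 10.34, 10.78 and 10.56 in Myd88−/− glands (difference 0.04). Ebp, an isomerase of the late steps, was the single enzyme with all Myd88−/− glands lower: it read 10.37, 10.50 and 10.64 in Myd88+/+ and 10.12, 10.36 and 9.93 in Myd88−/− glands, a difference of −0.37 (SE 0.18, limma adjusted p = 0.538).

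The last enzymes of the path overlapped widely between genotypes. Sc5d, a late desaturase, read 11.49, 11.10 and 11.35 in Myd88+/+ and 11.21, 11.83 and 10.97 in Myd88−/− glands (difference 0.02). Dhcr7, which completes cholesterol, read 8.87, 7.91 and 8.74 in Myd88+/+ and 8.39, 9.04 and 8.24 in Myd88−/− glands (difference 0.05). In both only replicate 2 of Myd88−/− was above every Myd88+/+ gland, and without that gland the difference was −0.23 in Sc5d and −0.19 in Dhcr7. Stard4, a soluble carrier of sterols between membranes, read 6.59, 5.68 and 6.61 in Myd88+/+ and 5.98, 6.31 and 6.18 in Myd88−/− glands, a difference of −0.14 (95% interval −0.72 to 0.45).

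The fatty acid enzymes, which depend more on Srebf1, differed by less than the SD of the Myd88−/− glands. Acaca, which makes malonyl-CoA, read 7.14, 7.43 and 7.56 in Myd88+/+ and 7.78, 7.90 and 7.04 in Myd88−/− glands (difference 0.20). Fasn, fatty acid synthase, read 7.80, 7.27 and 7.23 in Myd88+/+ and 7.89, 7.62 and 7.16 in Myd88−/− glands (difference 0.12). Scd1, the desaturase that makes oleate, read 15.04, 14.93 and 14.92 in Myd88+/+ and 15.48, 15.07 and 14.82 in Myd88−/− glands (difference 0.16). Leaving out 1 gland at a time moved Acaca between 0.03 (no Myd88−/− replicate 2) and 0.47 (no Myd88−/− replicate 3), and without Myd88−/− replicate 1 the difference was −0.04 in Fasn and −0.02 in Scd1. In all 3 genes Myd88−/− replicate 3 was the lowest of the 6 glands, and the limma adjusted p lay at 0.821 to 0.894.

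**Figure D3:**
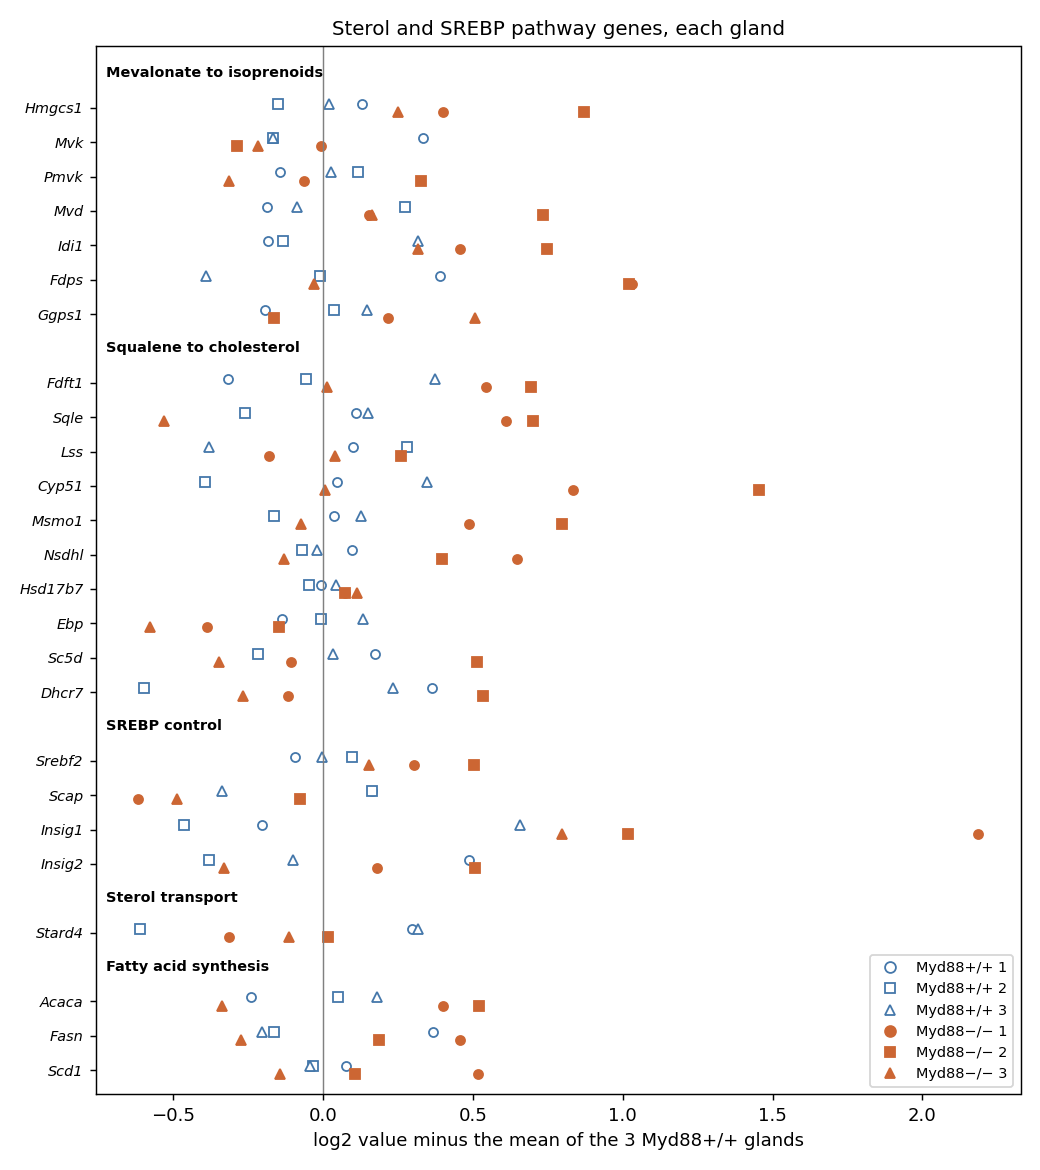
Values of the 25 genes in each gland as log2 value minus the mean of the 3 Myd88+/+ glands (x axis), by role; open symbols are Myd88+/+ and filled symbols Myd88−/− glands. Replicates 1 and 2 of Myd88−/− (filled circles and squares) lie to the right in most sterol genes, while replicate 3 (filled triangles) lies near or left of 0 in most, with Insig1, Ggps1, Idi1 and Hmgcs1 furthest to its right.

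The 3 Myd88−/− glands were not alike in this pathway. Over the 25 genes the mean log2 value minus the mean of the 6 glands was −0.06, −0.23 and −0.06 in the Myd88+/+ glands and 0.19, 0.34 and −0.19 in the Myd88−/− glands, in the order of their replicate numbers. Myd88−/− replicate 2 was above the highest Myd88+/+ gland in 18 of 25 genes, replicate 1 in 15 and replicate 3 in 5. The same share over all tested probe sets was not counted for single glands, so these counts have no background. Within its group, replicate 3 was the lowest gland in 18 of 25 genes and replicate 2 the highest in 17. Over the brighter 50% of all tested probe sets, replicate 3 was the lowest of its group in 42.9% and replicate 2 the highest in 46.2%, so bright probe sets in general leaned the same way.

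The order of the Myd88−/− glands was also that of their signal spans, 7.13 in replicate 2, 6.95 in replicate 1 and 6.83 in replicate 3, and its part in the result was not tested. After the mean of each genotype was subtracted, 22 of 25 genes correlated above 0 with the mean of the other genes, at a median Pearson r of 0.66 over 6 glands. Msmo1 (0.99), Sqle (0.98) and Cyp51 (0.96) had the highest and Ggps1 (−0.84) the lowest value. Insig1, the gene with the largest difference, had 0.32, under the median of the genes. The median r with the pathway's mean was 0.22 over the other tested probe sets in the brighter 50%, and 62.8% of these were above 0. The points share their arrays, and these correlations are descriptions of 6 glands.

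**Figure D4:**
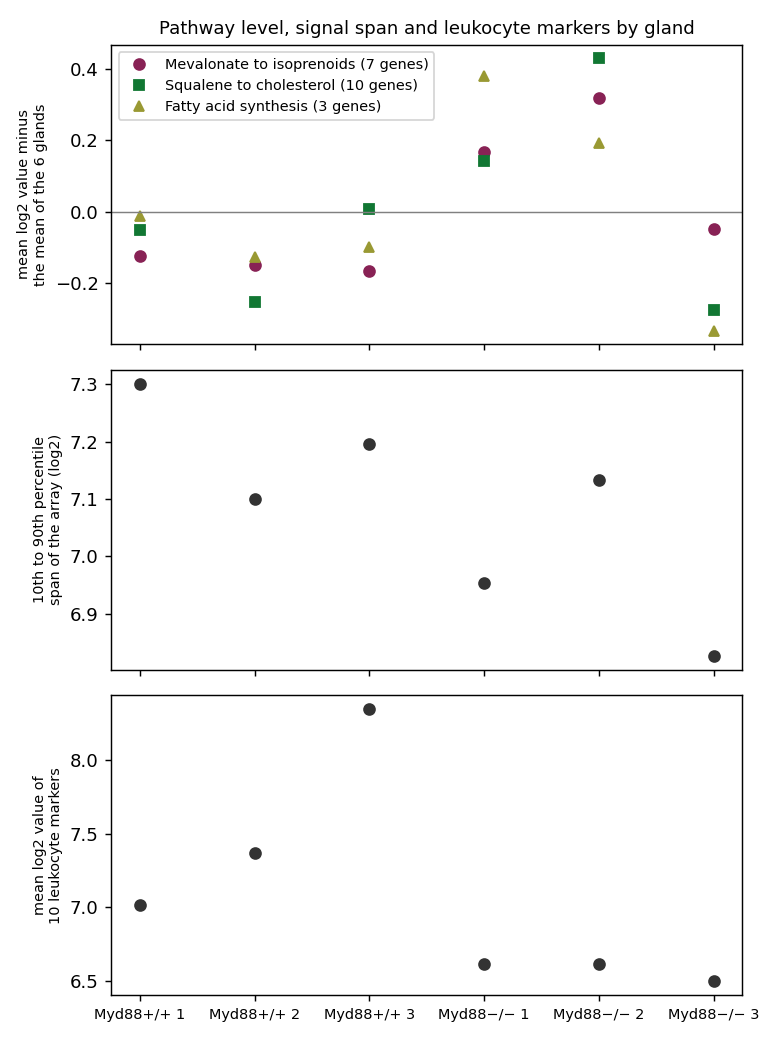
Top, mean log2 value minus the mean of the 6 glands for 3 roles of the pathway; middle, signal span of each array (10th to 90th percentile, log2 units); bottom, mean log2 value of 10 leukocyte markers; x axis, the 6 glands. The sterol roles are highest in Myd88−/− replicates 1 and 2, while the leukocyte markers are lower in all 3 Myd88−/− glands (6.50 to 6.62) than in the Myd88+/+ glands (7.02 to 8.35).

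Markers of other cells were read beside the pathway, and their part in its differences was not tested. Of 10 measured leukocyte markers 9 were lower in Myd88−/− glands, with a median difference of −1.02, and 0 passed limma's adjusted test. Itgam, an integrin of myeloid cells, had −1.36, with its Myd88−/− mean under the background median. Csf1r, the receptor of macrophage growth factor, had −1.23. Fibroblast markers were lower in 7 of 7 genes (list mean 10.66 to 11.34 in Myd88+/+ and 9.74 to 10.39 in Myd88−/− glands), with Fbln1 at −0.90 and Col1a2 at −1.12. Myoepithelial and basal markers were lower in 7 of 8 genes (9.30 to 9.83 against 8.83 to 9.45), with Trp63 at −1.18 and Acta2 at −0.81.

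Markers of fat cells, which are rich in Fasn and Scd1, overlapped between genotypes: the 11 measured genes had list means of 6.02 to 6.56 in Myd88+/+ and 6.20 to 6.25 in Myd88−/− glands. Adipoq and Plin1, which define these cells, had both group means under the background median. Adipoq still read 6.31 in Myd88+/+ replicate 1, above that median, against 4.56 to 5.58 in the other glands. That gland also had the highest list mean and the highest Fasn and Scd1 of its group, a link that was not tested. Fabp4 (named after its values were seen) was bright, at 9.19 to 10.49. The markers with the lowest p were Lipe (−0.50) and Retn (0.21, both group means under the background median). Of 10 measured serous acinar markers 2 were at the ceiling of the scale, 3 were higher and 5 lower, with a median difference of −0.05. Their list means were 13.48 to 14.02 in Myd88+/+ and 13.13 to 13.19 in Myd88−/− glands. This gap rested on 2 genes with far larger differences than the rest, Bpifa2 at −2.66 and Dcpp3 (named after its values were seen) at −2.52. Bpifa2 read 9.35, 10.07 and 6.27 in Myd88+/+ and 5.55, 5.78 and 6.38 in Myd88−/− glands, so the groups overlapped. Dcpp3 read 14.91 in Myd88+/+ replicate 3 against 4.65 to 6.59 in the other glands. Lpo differed by 0.01, Aqp5 by −0.14, Bhlha15 by −0.09 and Smr3a by 0.30. Of 9 measured duct markers 1 was at the ceiling, 4 were higher and 4 lower, and their list means lay at 13.07 to 13.28 and 12.86 to 13.10. The median of 0 was that of the gene at the ceiling, Klk1. Klk1b22, counted as higher, read 19.92 or 19.93 in every gland. Among genes of the ionocytes, Ascl3 had −0.96, Foxi1 −0.60 and Cftr (named after its values were seen) 0.49.

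Endothelial markers lay at 6.70 to 7.09 in Myd88+/+ and 6.56 to 6.87 in Myd88−/− glands, with Pecam1 at −0.32 and Cdh5 at −0.27. Skeletal muscle markers lay near background at 4.46 to 4.85 and 4.70 to 5.01, with Ckm at −0.65 and Myh4, under the background median in both groups, at 0.52. Mucous markers of the sublingual gland lay at 7.79 to 8.72 and 7.88 to 8.21, with Bpifb2 at 0.34 and Galnt12 at −0.81. Both genes had group means under the background median. Galnt12 read 6.38 in Myd88+/+ replicate 3, above that median, and 3.60 to 4.31 in the other glands. Both measured erythroid genes were higher, Slc4a1 by 0.68 and Alas2 by 0.49. Myd88+/+ replicate 3 had the highest list mean of the leukocyte, acinar, fibroblast, myoepithelial and mucous markers. In the acinar list this rested on Dcpp3, which read 14.91 in that gland and 4.65 to 6.59 in the others.

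The 5 neighbouring gene lists had medians below 0, as did the brighter 50% of all tested probe sets (−0.07). Among other genes of sterol synthesis and uptake, 8 of 9 measured genes were lower in Myd88−/− glands (median −0.15), and 0 passed the adjusted test. The lowest p was that of Lipa, the lysosomal lipase that frees cholesterol from its esters, at −0.71 (7.32, 7.92 and 8.42 in Myd88+/+, 7.39, 7.34 and 6.80 in Myd88−/− glands, limma adjusted p = 0.462). Erg28, a scaffold of the demethylation enzymes, had −0.39 and Npc1, the lysosomal cholesterol exporter, −0.16.

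The machinery that cuts and removes SREBP or its partners was lower in 7 of 9 measured genes (median −0.22), and 0 passed. Mbtps1, the protease that makes the first cut in SREBP, read 11.67, 11.55 and 11.57 in Myd88+/+ and 10.87, 11.40 and 10.66 in Myd88−/− glands. All Myd88−/− values were lower, by a log2 difference of −0.61 (SE 0.21, limma adjusted p = 0.431). Erlin1, a membrane protein that restrains SREBP, had −0.51 and Paqr3, a Golgi anchor of Scap, −0.37.

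Targets and partners of the sterol-sensing LXR receptors were lower in 6 of 10 measured genes (median −0.16), again with 0 past the test. Apoe, the apolipoprotein that macrophages and other cells load with cholesterol, had the tightest groups: it read 15.39, 15.39 and 15.44 in Myd88+/+ and 14.63, 14.69 and 14.72 in Myd88−/− glands. The difference of Apoe was −0.73 (SE 0.15, limma adjusted p = 0.321), and it stood beside the lower leukocyte markers, whose part was not tested. Mylip, a ligase induced by LXR, read 12.89, 12.80 and 12.47 in Myd88+/+ and 12.06, 12.27 and 12.31 in Myd88−/− glands (difference −0.50, no overlap). Cyp27a1, which makes an oxysterol that macrophages release, had −0.73 with overlapping groups.

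The further fatty acid genes were split, 8 higher and 9 lower of 17 (median −0.08). Acly, which supplies acetyl-CoA to sterol and fatty acid synthesis alike, was higher in replicates 1 and 2 of Myd88−/− than in every other gland, as Cyp51 was. It read 12.73, 12.19 and 12.69 in Myd88+/+ and 13.39, 13.35 and 12.58 in Myd88−/− glands, a difference of 0.57 (limma adjusted p = 0.506). Scd4 had 0.37 with both group means under the background median, and Fads2, a desaturase of polyunsaturated fatty acids, −0.45. Sterol transfer proteins had 4 higher and 4 lower of 8 genes (median −0.01), with Gramd1a at −0.21, Stard5 at −0.19 and Gramd1c at 0.16. The difference between these lists and the sterol enzymes was not tested.

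**Figure D5:**
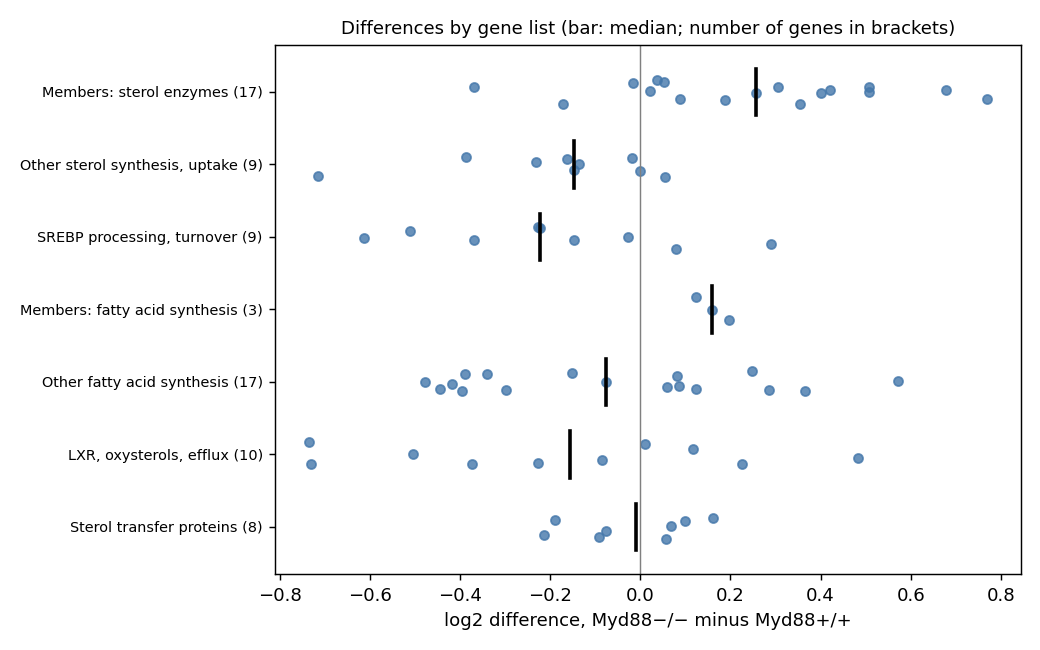
Log2 differences, Myd88−/− minus Myd88+/+ (x axis), of the sterol and fatty acid enzymes of the pathway and of 5 neighbouring gene lists (y axis, number of genes in brackets); each point is a gene and each bar the median of a list. The sterol enzymes lie mostly above 0, and the medians of the neighbouring lists lie between −0.22 and −0.01.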

How the data were processed

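The authors made the deposited log2 values by RMA with the Transcriptome Analysis Console, per the labels; the sources used here give neither the software's version nor the RMA variant or build. RMA shrinks differences near background, and values cannot rise past a ceiling of 19.93. Groups came from the sample titles. Of 28846 probe sets, 6640 controls were left out, and 19572 of the 22206 tested ones had 1 symbol in the platform annotation. Genotypes were compared by lmFit and eBayes of limma 3.58.1 (R 4.3.3) without covariates, and p-values were adjusted across every tested probe set by Benjamini and Hochberg's method, with calls at an adjusted p under 0.05; the script was tested on simulated data. The number of arrays limits the precision.

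The genes and lists were chosen with earlier results of these data known. All measured genes of the pathway are named, and of other lists up to 3 (neighbouring pathways) or 2 (cell markers) with the lowest unadjusted p; Adipoq, Plin1, Lpo, Egf, Aqp5 and Bhlha15 were named as defining markers. Alternatives were quantile normalization, median centring, no dimmest 30% of probe sets, limma with array weights, with a trend and robust variances, or with a replicate block, and the omission of single mice.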

Additional observations from a re-analysis of the deposited data

How the results depend on the processing

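Over 12 alternatives, 0 of the 25 genes passed limma's adjusted test, the lowest adjusted p being 0.244. The count of all tested probe sets that passed was 0, but 2 with median centring, 4 with an intensity trend and robust variances and 0 to 5 without 1 mouse. Of the pathway's genes, 3 had an unadjusted p under 0.05, against 6 with quantile normalization, 5 with the trend, 6 with array weights (5 higher, 1 lower) and 1 to 9 without 1 mouse; genes with a lower mean numbered 5, and 4 to 9 without 1 mouse. Their median log2 difference was 0.19, and 0.09 to 0.34 without 1 mouse. With the replicate block this median was 0.19 and 2 genes had an unadjusted p under 0.05. For none of the alternatives was the share of all tested probe sets at that p, or with a lower mean, counted. Same-numbered glands did not deviate together (r = −0.11, −0.15 and −0.02, and 0 of 6 glands correlated best with their own number). With 3 glands per genotype, this cannot tell whether equal numbers mark mice handled together, and the labels do not say. The cause of the changes between alternatives was not tested. A different probe set per gene could not be tried, as each gene had 1.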

Other observations

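Of the pathway's 25 genes, Scap and Sc5d lie on chromosome 9 with Myd88 (RefSeq, GRCm38.p6), Scap within 10 Mb of it and Sc5d 77.1 Mb away. The difference of Scap was −0.39, and −0.55 to −0.28 when 1 gland was left out. Whether its probes meet a strain difference was not tested. Sc5d had a difference of 0.02.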
